A study of Mus musculus with 4 samples.

Results

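The niche ligands and receptors of the spermatogonia studied here were 9 genes, taken by symbol from the 55450 genes in the files: Kit, Kitl, Gdnf, Gfra1, Ret, Cxcl12, Cxcr4, Csf1 and Csf1r. Each symbol was found once. They were measured in dissociated testis of mice by droplet single-cell RNA sequencing, as 2 libraries of the high-fat diet group (HFD) and 2 of the normal diet group (ND). Beyond the diet the labels name no allele or agent: they give it alone, without strain, age, length of feeding or genotype, and do not say whether a library came from 1 mouse or from pooled mice. P-values below therefore measure the spread between libraries, which may be technical. The question was where in the testis each gene was found and whether its level differed between the diets.

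The niche is the set of somatic neighbours that keeps spermatogonial stem cells and times their differentiation. GDNF, known from Sertoli and peritubular cells, acts on undifferentiated spermatogonia through the receptor tyrosine kinase RET and its co-receptor GFRA1. KIT ligand (the product of Kitl) acts through KIT on differentiating spermatogonia, and KIT is also known in Leydig cells. CXCL12 is a chemokine that signals through CXCR4, and CSF1 is the growth factor that keeps macrophages through CSF1R.

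The libraries held 13561 to 15290 barcodes, beside approximately 13000 cells per channel stated in the labels, and 13122 to 14468 cells were kept after 421 to 853 called doublets were left out. Median depth was 5510 to 5946 UMIs per cell, and any pair of libraries shared 42 to 65 barcodes. Clusters were named by the likeness of fixed markers, none of them a member, which gave 1266 Leydig-like, 751 Sertoli-like, 281 fibroblast-like, 44 endothelial-like, 279 macrophage-like, 295 lymphocyte-like and 215 spermatogonia-like cells. Of the later germ cells, 1955 were early spermatocyte-like, 15851 pachytene and later spermatocyte-like, 13087 round spermatid-like and 8694 elongating spermatid-like, and 12199 cells stayed unnamed. No cluster was named for peritubular myoid cells. Markers of elongating spermatids were also counted in somatic classes. They were at 4858 to 6167 CPM in Leydig-like, 12790 to 22186 in fibroblast-like and 12076 to 14985 in Sertoli-like cells. In Sertoli-like cells pachytene markers, at 3177 to 3641 CPM, stood near the Sertoli markers (3367 to 3996). Levels and upper limits given for Sertoli-like cells are therefore those of a class that also holds germ-cell markers. CPM is the number of UMIs per 1000000 UMIs of a class in a library.

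By GENCODE M21 on GRCm38, all 9 are protein-coding genes. Kit lies at chr5:75574916-75656722 on the plus strand, Kitl at chr10:100015630-100100416 on the plus strand, and Gdnf at chr15:7810846-7837575 on the plus strand. Gfra1 lies at chr19:58235604-58455909 on the minus strand and is overlapped by the antisense gene Gm16277. Ret lies at chr6:118151745-118197718 on the minus strand, and Cxcl12, on the plus strand of the same chromosome, at chr6:117168535-117181367. Cxcr4 lies at chr1:128588199-128592293 and Csf1 at chr3:107741048-107760469, both on the minus strand. Csf1r overlaps Hmgxb3, which lies on the other strand. Whether the counting used strand is not given in the sources used here, so reads of Gfra1 and Gm16277, or of Csf1r and Hmgxb3, may not be told apart.

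Promoters of the 4 genes that were lower in the whole testis of HFD mice, Kit, Kitl, Cxcl12 and Csf1, are shown 5′ to 3′. These genes were chosen by their calls in that sum of all cells, and a shared regulation was not tested. The sequences are from RefSeq (GRCm38.p6), cut to the bases before the first annotated start, with the GC box (GGGCGG on either strand) in capitals. They cover chr5:75574737-75574915 for Kit, chr10:100015571-100015629 for Kitl and chr6:117168285-117168534 for Cxcl12, all on the plus strand, and chr3:107760470-107760719 on the minus strand for Csf1.
Kit: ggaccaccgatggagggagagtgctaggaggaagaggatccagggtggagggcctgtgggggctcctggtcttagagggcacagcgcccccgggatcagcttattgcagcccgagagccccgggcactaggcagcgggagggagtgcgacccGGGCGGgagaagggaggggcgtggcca
Kitl: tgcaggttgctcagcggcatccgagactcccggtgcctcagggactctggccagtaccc
Cxcl12: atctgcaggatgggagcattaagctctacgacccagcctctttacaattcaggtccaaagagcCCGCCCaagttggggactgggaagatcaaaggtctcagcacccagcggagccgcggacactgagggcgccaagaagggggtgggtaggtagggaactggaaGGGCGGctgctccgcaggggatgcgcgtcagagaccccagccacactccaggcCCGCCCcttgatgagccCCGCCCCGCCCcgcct
Csf1: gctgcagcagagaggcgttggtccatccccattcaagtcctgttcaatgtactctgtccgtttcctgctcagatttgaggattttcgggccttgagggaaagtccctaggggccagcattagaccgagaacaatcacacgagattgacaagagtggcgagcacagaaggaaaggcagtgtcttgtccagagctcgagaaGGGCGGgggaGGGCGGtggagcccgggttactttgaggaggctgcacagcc
The table has an entry for 7 of the 9 members. In windows of 250 bases the GC box was found 1 time for Kit, 3 times for Kitl (past the bases printed), 5 times for Cxcl12, 3 times for Cxcr4 and 2 times for Csf1, and 0 times for Gdnf and Gfra1. Of all 32851 windows of that length, 32.7% held it. The half-site of the steroidogenic factor NR5A1 (AAGGTCA on either strand) was found in 0 windows of the members and in 4.08% of all windows. The motifs share no bases in these windows, since the second had no match. A match describes letters and not a binding site.

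Kit, the receptor, had its highest levels in Leydig-like and spermatogonia-like cells. In Leydig-like cells the level was 126, 128, 163 and 153 CPM in HFD 1, HFD 2, ND 1 and ND 2 (142 ± 18.3, SD, n = 4). In spermatogonia-like cells it was 108, 95.4, 132 and 94.4 CPM (108 ± 17.7). The ranges of these 2 classes overlap, and they lie apart from those of all other classes. Round spermatid-like cells came next among classes with more than 3 UMIs, at 5.04, 4.73, 5.14 and 5.49 CPM, above early spermatocyte-like (2.16 ± 0.617), elongating spermatid-like (1.76 ± 0.254) and pachytene-like cells (0.507 ± 0.0549). Of the 49 Kit UMIs in early spermatocyte-like cells, 25 lay in cluster G1 (436 cells, median depth 2375.5 UMIs), which was led by Pet2, Fmr1 and Pbx3 and had 19.5 ± 5.69 CPM (SD, n = 4). Endothelial-like, lymphocyte-like, macrophage-like, fibroblast-like and Sertoli-like cells had 1 to 3 Kit UMIs each.

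A UMI of Kit was seen in 51.1% of Leydig-like cells (median depth 5786.5 UMIs) and in 40.5% of spermatogonia-like cells (5108 UMIs), against 0.266% of Sertoli-like cells (2036 UMIs). With each cell thinned to 1500 UMIs, which left out 191 HFD and 4185 ND cells, the shares were 19.4%, 12.7% and 0.168%. Round spermatid-like cells, at their lower level but in larger number, held 911 of the 2522 Kit UMIs (36.1%), next to 1046 (41.5%) in Leydig-like cells and 140 (5.55%) in spermatogonia-like cells.

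**Figure D1:**
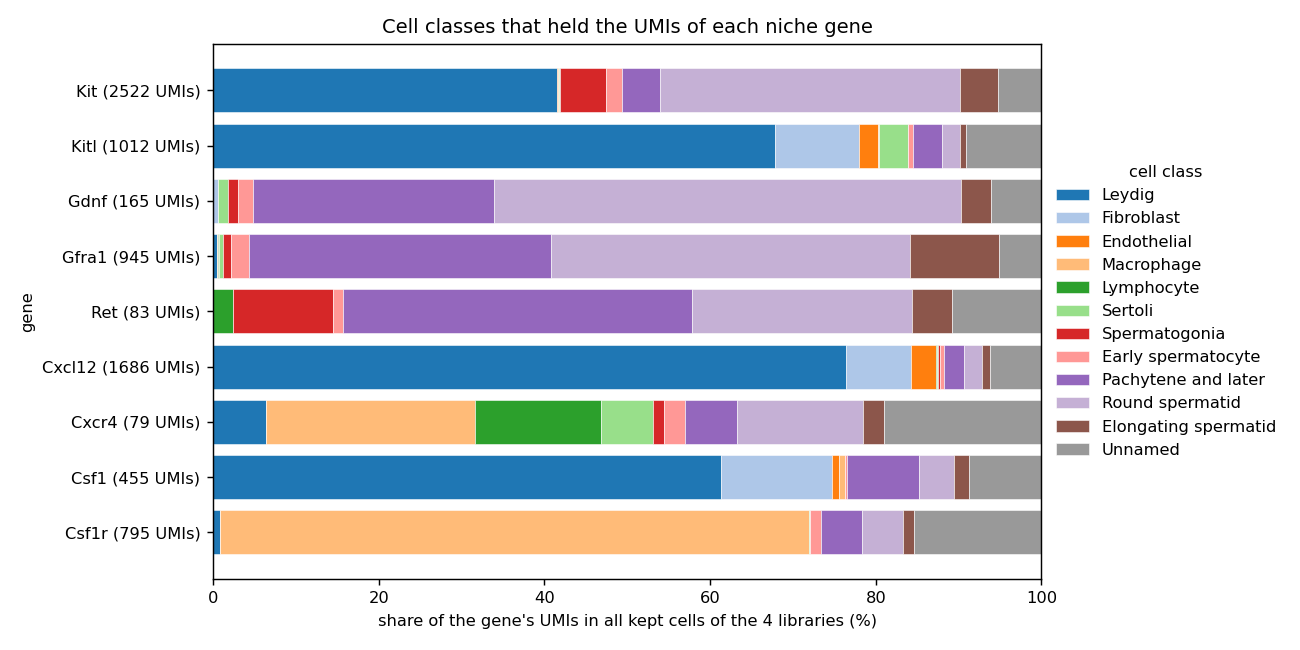
Share of each gene's UMIs (x axis, percent of all kept cells of the 4 libraries) by cell class, with the number of UMIs beside each name. Leydig-like cells held 67.8% of Kitl, 76.5% of Cxcl12 and 61.3% of Csf1 UMIs, while Gdnf, Gfra1 and Ret UMIs lay mostly in spermatocyte-like and spermatid-like cells.

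Within the round spermatid-like class the level of Kit differed between clusters. Cluster 13 (3343 cells) had 11.9, 10.7, 10.6 and 10.7 CPM in HFD 1, HFD 2, ND 1 and ND 2. Cluster 15 had 4.71 ± 1.23 CPM, cluster 12 had 2.57 ± 0.534 and cluster 14 had 0.98 ± 0.308 (SD, n = 4), and no library of these 3 reached the lowest library of cluster 13. After that of round spermatids, the highest marker score was that of pachytene spermatocytes in cluster 14 (0.113) and of elongating spermatids in cluster 15 (0.662). A further cluster of the class had 17 cells. Insl3, a hormone made by Leydig cells, was at 5559 CPM over all libraries in Leydig-like and 3.48 CPM in round spermatid-like cells, while Kit was at 142 and 5.1 CPM in these classes. Spermatids are known to make a shortened KIT from a promoter inside the gene. The annotation holds 8 Kit transcripts, of which Kit-208, with retained intron, starts at 75649094 and ends at 75656694, close to the end of the full-length forms at 75656722, and 3′ counts do not tell such forms apart.

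**Figure D2:**
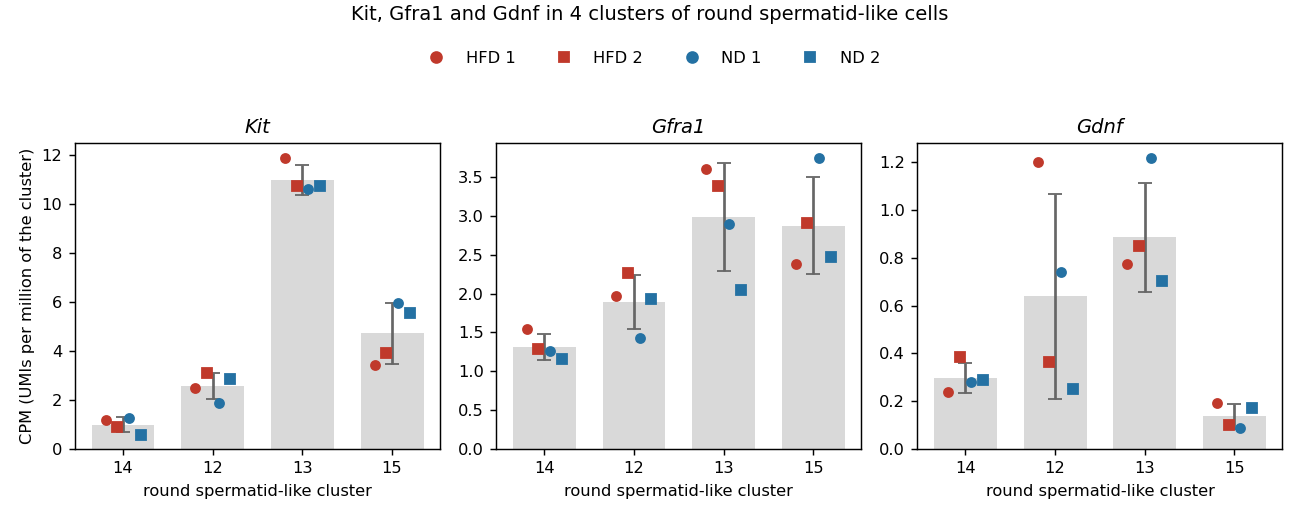
CPM of Kit, Gfra1 and Gdnf (y axis) in 4 clusters of round spermatid-like cells (x axis). Bars are means and error bars SD over 4 libraries, and points are libraries. All 4 libraries of cluster 13 lie above 10 CPM for Kit, above every library of the other 3 clusters.

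Kitl, the ligand, was found in stromal cells and Leydig-like cells. Fibroblast-like cells had 137, 161, 196 and 152 CPM in HFD 1, HFD 2, ND 1 and ND 2, and endothelial-like cells had 254, 180, 76.7 and 103 CPM from 23 UMIs in all. Leydig-like cells followed with 100.4, 82.4, 92.2 and 103 CPM. Fibroblast-like and endothelial-like levels overlap, as do those of endothelial-like and Leydig-like cells, while every fibroblast-like value lies above every Leydig-like one. Sertoli-like cells, a known source of KIT ligand, had 17.7, 4.89, 9.84 and 20.1 CPM from 35 UMIs, and 27 of these were in cluster S3, the deeper of its 2 clusters. The other, S0 (415 cells), scored 0.931 for Sertoli cells and 0.603 for pachytene spermatocytes. Sertoli-like values lie apart from those of Leydig-like cells. Spermatogonia-like cells had 0 UMIs, which allows up to 2.33 CPM, and lymphocyte-like cells 0 as well (up to 4.08 CPM).

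Receptor and ligand met in the same class in Leydig-like cells. Both Kit and Kitl were counted in 287 of the 1266 cells (22.7%), Kit alone in 360 and Kitl alone in 204. By library the share with both was 24.7%, 18.6%, 24.3% and 22.6% in HFD 1, HFD 2, ND 1 and ND 2, and the diets overlap.

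Gdnf was sparse, with 165 UMIs in all. Round spermatid-like cells held 93 of them (56.4%) at 0.639, 0.418, 0.642 and 0.388 CPM, and pachytene-like cells held 48 at 0.241, 0.261, 0.185 and 0.12 CPM. Sertoli-like cells, the known source, had 2 UMIs, both in HFD 1. Leydig-like cells had 0 UMIs, which allows up to 0.416 CPM, and macrophage-like cells 0 with up to 3.2 CPM. Spermatogonia-like cells had 2 UMIs in 1 cell of HFD 2. A level of Gdnf in Sertoli-like cells was not measurable at this depth, and no class of peritubular cells was named. In the round spermatid-like clusters Gdnf was at 0.886 ± 0.229 CPM in cluster 13 and 0.137 ± 0.0516 in cluster 15, and these ranges do not overlap.

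Gfra1, the co-receptor, had its highest level in spermatogonia-like cells, at 5.53, 0, 11.3 and 13 CPM from 10 UMIs. Most of its 945 UMIs lay elsewhere: 410 in round spermatid-like cells (2.44, 2.51, 2.36 and 1.98 CPM), 344 in pachytene-like cells (1.91, 1.43, 1.5 and 1.02 CPM) and 101 in elongating spermatid-like cells (1.55 ± 0.341 CPM). The spermatogonia-like range overlaps that of the round spermatid-like cells, with 0 UMIs in HFD 2. Fibroblast-like cells had 0 UMIs (up to 4.68 CPM). A UMI was seen in 4.19% of spermatogonia-like and 2.96% of round spermatid-like cells (median depths 5108 and 11436 UMIs), and in 0.316% of Leydig-like cells. At 1500 UMIs the shares were 0.939%, 0.327% and 0.161%.

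Ret, the signalling receptor, had 83 UMIs. Spermatogonia-like cells held 10 of them, at 13.8, 0, 11.3 and 3.26 CPM, and no Leydig-like, Sertoli-like, macrophage-like, fibroblast-like or endothelial-like cell held any. Pachytene-like cells had 35 UMIs at 0.149 ± 0.049 CPM and round spermatid-like cells 22 at 0.122 ± 0.0432 CPM.

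The spermatogonia-like cells fell into 2 clusters. Kit was counted in both and was higher in the larger, while nearly all Gfra1 and Ret UMIs lay in the smaller. Cluster G7 (175 cells), led by Crabp1, Hist1h2ap and P3h3, had 131 Kit UMIs in 81 cells, 1 Gfra1 UMI and 0 Ret UMIs. Cluster G8 (40 cells), led by Sdc4, Trim71 and Sox4, had 9 Kit UMIs in 6 cells, 9 Gfra1 UMIs in 8 cells and 10 Ret UMIs in 7 cells. Kit was then at 126 CPM in G7 and 37 CPM in G8, while Gfra1 was at 0.959 against 37 CPM and Ret at 0 against 41.1 CPM. Some genes of undifferentiated spermatogonia were higher in G8 as well, with Zbtb16 at 24 CPM in G7 and 156 in G8 and Nanos3 at 2.88 and 65.8 (3 and 16 UMIs). Of genes downstream of GDNF, Etv5 was counted 1 and 4 times and Lhx1 1 and 6 times, while Pou3f1 was at 95.9 and 94.6 CPM (100 and 23 UMIs). The cyclin Ccnd2, of the same list, was at 7.67 and 436 CPM (8 and 106 UMIs). Of the paired factors of differentiation, Sohlh1 was at 86.3 CPM in G7 and 173 in G8 (90 and 42 UMIs) and Sohlh2 at 31.7 and 24.7 (33 and 6 UMIs). The retinoic acid response gene Stra8 was at 309 and 308 CPM. Those genes, but not the members, took part in the clustering, so these are descriptions without a test. In single cells, Kit was seen in 87 of the 215, Gfra1 in 9 and Ret in 7. Of these, 2 had Kit and Gfra1, 2 had Kit and Ret, and 3 had Gfra1 and Ret. With Gfra1 and Ret in so few cells, these counts cannot show whether the receptors are apart in single cells.

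Cxcl12 had its levels in endothelial-like, fibroblast-like and Leydig-like cells. Endothelial-like cells had 394, 428, 268 and 258 CPM from 50 UMIs, fibroblast-like cells 155, 260, 202 and 217 CPM, and Leydig-like cells 156, 190, 181 and 186 CPM in HFD 1, HFD 2, ND 1 and ND 2. The ranges of neighbours in this order overlap, and all 3 lie apart from those of every other class, the next being lymphocyte-like cells with 3 UMIs. Leydig-like cells held 1289 of the 1686 UMIs. Sertoli-like cells had 1 UMI and macrophage-like cells 0 (up to 3.2 CPM).

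Cxcr4, its receptor, had 79 UMIs, of which 20 were in macrophage-like cells (11.5, 36.8, 17.7 and 21.5 CPM) and 12 in lymphocyte-like cells (14.2, 10.3, 5.89 and 37.7 CPM). These 2 ranges overlap. In spermatogonia-like cells, a known target of CXCL12, 1 UMI was counted, in ND 1. A UMI was seen in 6.45% of macrophage-like and 3.05% of lymphocyte-like cells (median depths 2623 and 2087 UMIs), against 0 of 281 fibroblast-like cells. At 1500 UMIs the first 2 shares were 5.19% and 2.61%.

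Csf1 was highest in fibroblast-like cells, at 125, 115, 69.4 and 75.9 CPM in HFD 1, HFD 2, ND 1 and ND 2, and then in Leydig-like cells, at 32.8, 39.1, 39.7 and 41.7 CPM. Every fibroblast-like value lies above every Leydig-like one, while endothelial-like cells had 4 UMIs in all. Leydig-like cells, being more numerous, held 279 of the 455 UMIs and fibroblast-like cells 61. Sertoli-like and spermatogonia-like cells had 0 UMIs, allowing up to 1.16 and 2.33 CPM, and macrophage-like cells had 3, all in ND 2.

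Csf1r, which marks macrophages, was found mainly in macrophage-like cells. These had 592, 561, 627 and 627 CPM and 565 of the 795 UMIs, and a UMI was seen in 77.1% of them (60.4% at 1500 UMIs) against 1 of 751 Sertoli-like cells. Of their 2 clusters, S10, led by Ccl8 and Lyz2, had 832 ± 51.2 CPM and S13, led by Stab1 and Dab2, had 169 ± 36.5 CPM (SD, n = 4), with no overlap. Both were present in all libraries, but S13 made up 41.4% and 25.8% of macrophage-like cells in HFD 1 and HFD 2 and 16.7% and 14.1% in ND 1 and ND 2. Among the unnamed cells, Csf1r was at 172 ± 34.5 CPM in cluster S14, led by Ccl4, Cxcl2 and Il1b, and at 202 ± 18.1 CPM in cluster S9, which carried Leydig and macrophage markers together.

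**Figure D3:**
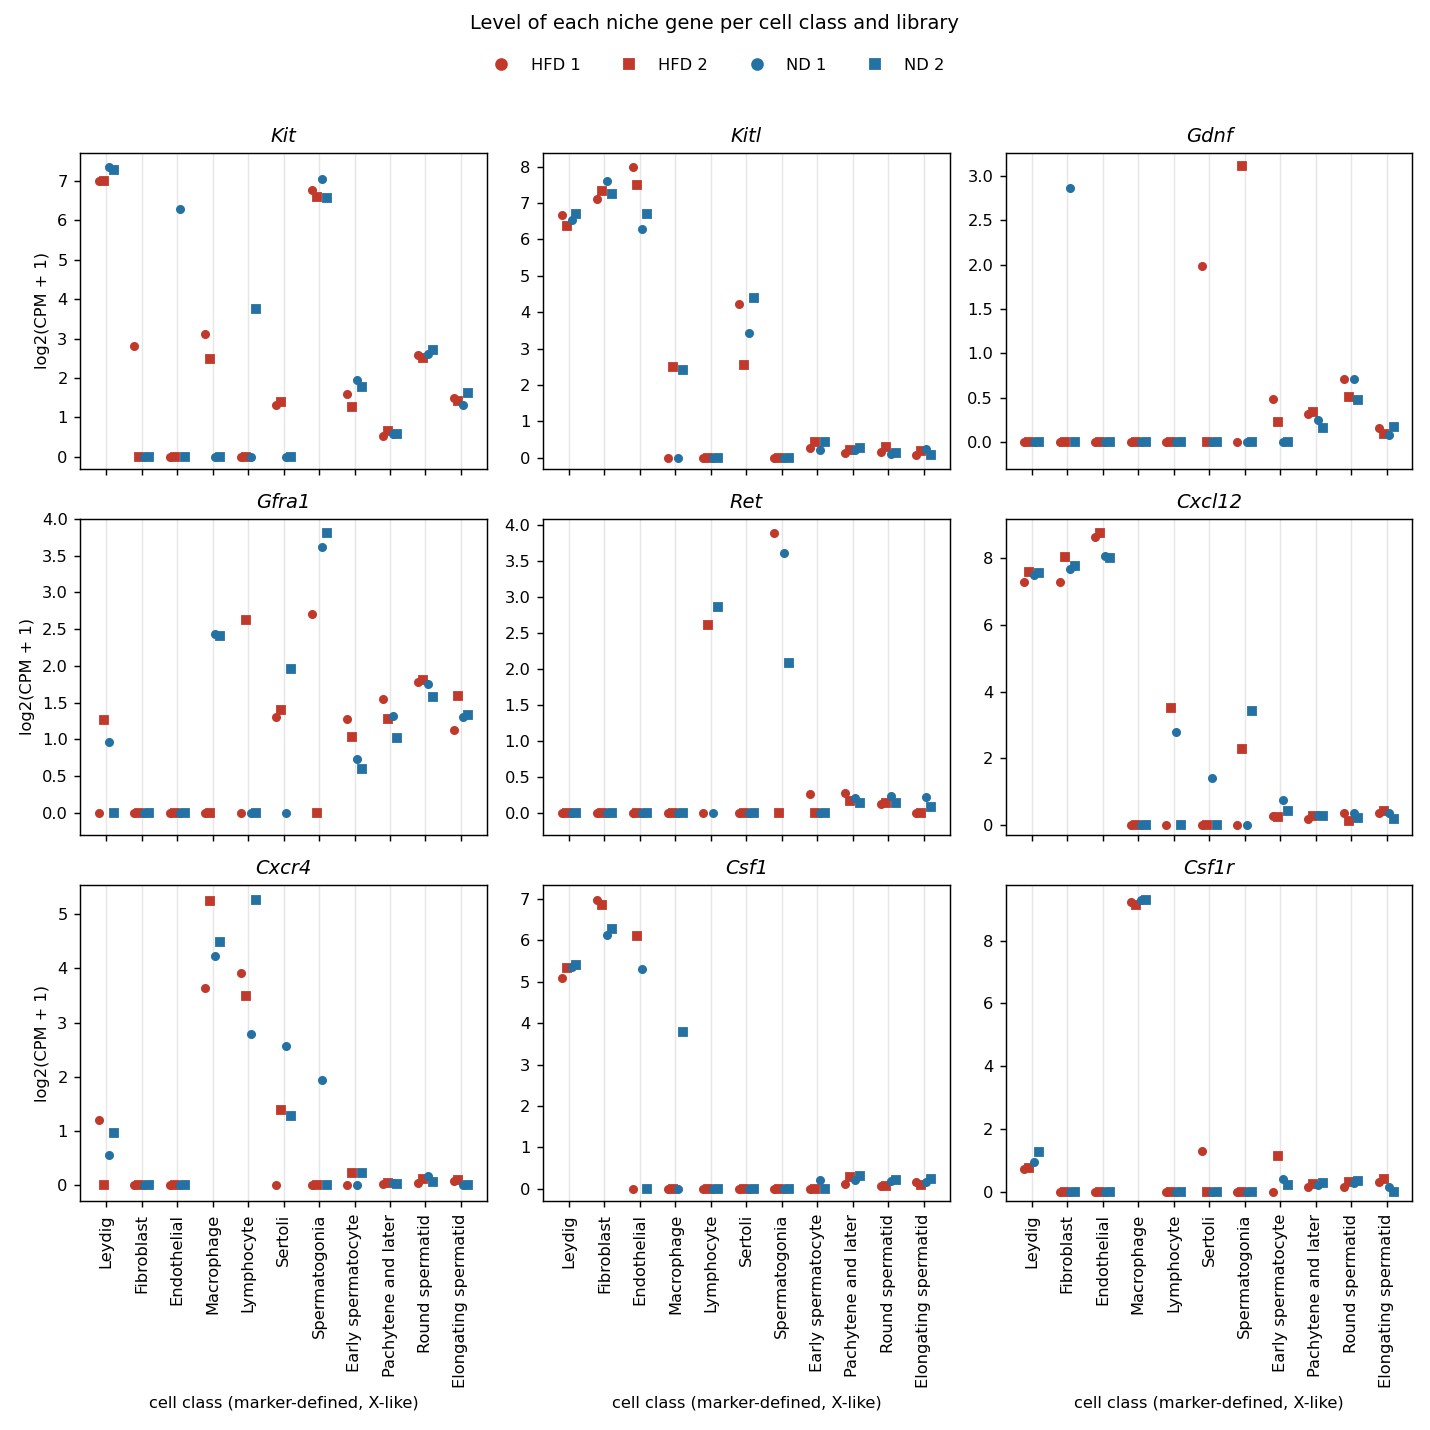
Level of each gene, as log2(CPM + 1) on the y axis, in each cell class (x axis) and library (points). Kit is high in Leydig-like and spermatogonia-like cells, Kitl, Cxcl12 and Csf1 in Leydig-like and fibroblast-like cells, and Csf1r in macrophage-like cells, in all 4 libraries.

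The genes most like each member were read over 40 sums (10 classes with at least 20 cells in every library, times 4 libraries) among 12408 genes, by Pearson correlation of log2(CPM + 1), as a description in which sums of 1 library share its depth. For Kit they were Pacsin3 (r = 0.913), Igfbp2 (0.892) and Tspan15 (0.886). For Kitl they were Sspn (0.964), Mmd2 (0.951) and Mme (0.946), and for Cxcl12 they were Ogn (0.965), Wnt5a (0.96) and Cav1 (0.953). Csf1 was nearest to Adamts1 (0.989), Efemp1 (0.974) and Itih5 (0.966), and Csf1r to Fcrls (0.993), Clec12a (0.992) and Clec4a3 (0.992). The sparse genes had weaker neighbours, with Recql4 (0.761), Rad51b (0.621) and Gm43409 (0.564) for Gfra1 and Gm6598 (0.485), Col5a1 (0.476) and Gm34678 (0.46) for Gdnf.

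Between the diets, the sum of all kept cells (the whole testis) had lower Kit, Kitl, Cxcl12 and Csf1 in HFD. In this sum fewer cells of a type and less RNA per cell cannot be told apart. In the diet comparisons CPM is per 1000000 UMIs of the genes that passed the low-count filter of that fit, scaled by the TMM factor of the library. It therefore lies above the class levels given before where the filter left out more UMIs: the tested genes held 78% to 79.7% of UMIs in fibroblast-like, 85.7% to 86.6% in macrophage-like and 90.9% to 91.3% in spermatogonia-like cells, and over 95% in the other sums with a tested member. Kit was at 3.82 and 3.63 TMM-scaled CPM in HFD 1 and HFD 2 and at 5.6 and 5.43 in ND 1 and ND 2. Kitl was at 1.56 and 1.4 CPM in HFD and 2.15 and 2.31 in ND. Cxcl12 was at 2.3 and 2.7 CPM in HFD and 3.6 and 3.78 in ND, and Csf1 at 0.666 and 0.701 in HFD and 0.918 and 1.05 in ND. Both HFD libraries lay below both ND libraries for each of the 4. The log2 ratio of HFD over ND was -0.56 for Kit (SE 0.077, adjusted p = 8.55e-05), -0.59 for Kitl (SE 0.113, adjusted p = 0.00106), -0.56 for Cxcl12 (SE 0.0991, adjusted p = 0.000555) and -0.53 for Csf1 (SE 0.149, adjusted p = 0.0132), by edgeR's quasi-likelihood test.

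These were 4 of the 9 members called lower and 0 called higher, where 18.9% of all 25470 genes tested were called lower and 15.3% higher. The median log2 ratio was -0.40 over the members and -0.02 over all genes tested. The call of Csf1 was lost without HFD 1 (adjusted p = 0.0814), without HFD 2 (0.0571), without ND 2 (0.0517) and with DESeq2 (0.111). The other 5 did not pass the test. Gfra1 was at 1.94 and 1.75 CPM in HFD and 1.75 and 1.45 in ND (log2 ratio 0.21, SE 0.124, adjusted p = 0.224, edgeR), and Gdnf at 0.361 and 0.285 against 0.331 and 0.224 (0.22, SE 0.248, adjusted p = 0.523). Csf1r was at 1.37 and 1.38 CPM against 1.48 and 1.57, both HFD libraries below both ND libraries, with a log2 ratio of -0.15 (SE 0.118, adjusted p = 0.361, edgeR). Cxcr4 was counted 14 and 21 times in HFD and 20 and 24 times in ND, and Ret 26 and 15 times against 27 and 15, with adjusted p of 0.384 and 0.847 (edgeR).

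The share of Leydig-like cells, which held most UMIs of Kitl, Cxcl12 and Csf1, differed between the diets in the same direction. They were 1.76% and 1.91% of kept cells in HFD and 2.67% and 2.82% in ND (log2 ratio -0.58, SE 0.0594, adjusted p = 0.00917, edgeR), and this call was lost without ND 1 (adjusted p = 0.118) or ND 2 (0.0732). Round spermatid-like cells, the other large holder of Kit UMIs, were 21.5% and 21.3% in HFD and 26% and 26.3% in ND (log2 ratio -0.29, SE 0.0167, adjusted p = 0.00317), with adjusted p of 0.0518 and 0.0568 when an ND library was left out. Fibroblast-like, macrophage-like, Sertoli-like and spermatogonia-like shares were not called. All shares were taken over barcodes of unlike lowest depth. The shallowest barcode had 1638 and 1468 UMIs in HFD 1 and HFD 2, and 1141 and 1171 in ND 1 and ND 2. Under 1500 UMIs lay 191 HFD and 4185 ND cells. The part of this difference in the shares was not tested. The SEs of shares can be too small. For lymphocyte-like cells a log2 ratio of -0.098 had an SE of 0.041 beside an unadjusted p of 0.559 (edgeR). Pachytene-like cells had a log2 ratio of 0.30 (adjusted p = 0.0938), and 3 of the 4 clusters of this class scored 0.508 to 0.554, close to the limit of 0.5 for naming.

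With Leydig-like cells left out of the sum, a comparison chosen after their share was seen, Kit was lower in HFD. It was at 2.51 and 2.31 CPM in HFD and 3.08 and 3.06 in ND (log2 ratio -0.35, SE 0.097, adjusted p = 0.0145, edgeR), and the call was lost without HFD 2 (0.111) and with DESeq2 (0.0533). Kitl was at 0.503 and 0.536 CPM against 0.699 and 0.685, groups that do not overlap, with a log2 ratio of -0.41 (SE 0.164, adjusted p = 0.0732). The ratio was -0.20 for Cxcl12 (SE 0.156, adjusted p = 0.362, edgeR) and -0.16 for Csf1 (SE 0.229, adjusted p = 0.645), and neither passed. So 1 of 9 members was called lower, where 16.4% of all 25153 genes were. The largest holder of Kit left in this sum was the round spermatid-like class, with 911 UMIs. Its share of cells had a log2 ratio of -0.29, and Kit within it was not called (-0.15, SE 0.1, adjusted p = 0.479, edgeR). This sum also still held unnamed cluster S9, whose 65 cells had Kit at 104 ± 27.5 CPM. The part of these cells in the Kit call was not tested.

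**Figure D4:**
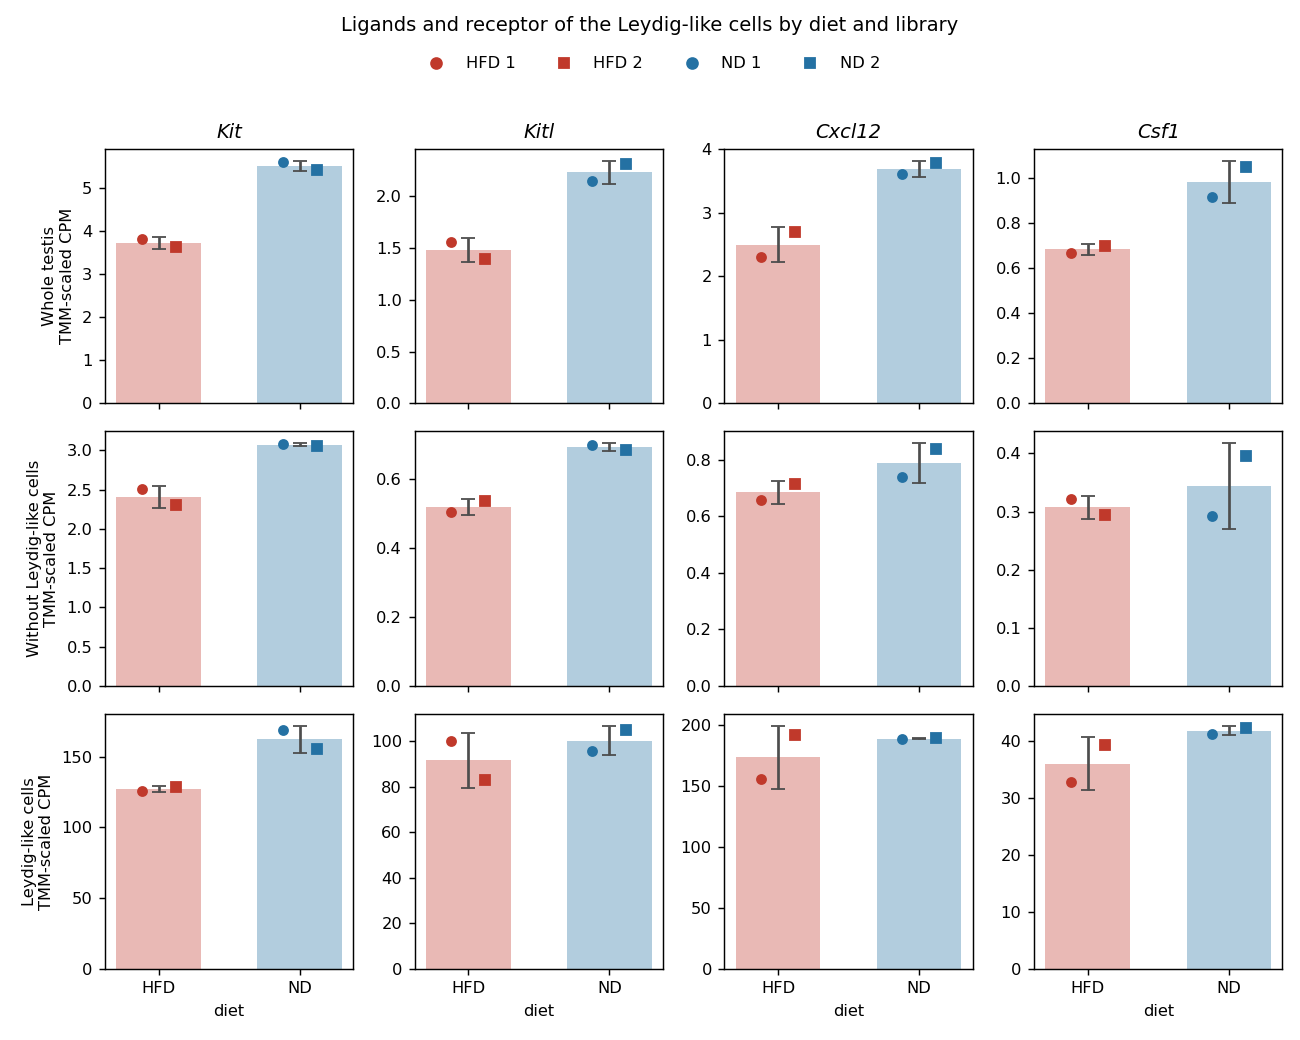
TMM-scaled CPM over the tested genes (y axis) of Kit, Kitl, Cxcl12 and Csf1 by diet (x axis) in the whole testis, in the testis without Leydig-like cells and in Leydig-like cells. Bars are means, error bars SD over 2 libraries and points libraries. In the whole testis both HFD libraries lie below both ND libraries for all 4 genes, and in Leydig-like cells this holds for Kit and Csf1.

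Within Leydig-like cells, Kit was the only 1 of the 4 members tested that was called. It was at 126 and 129 CPM in HFD 1 and HFD 2 and at 169 and 156 in ND 1 and ND 2, with both HFD libraries below both ND libraries. The log2 ratio was -0.35 (SE 0.109, adjusted p = 0.0406, edgeR), where 2.72% of all 11603 genes tested in these cells were called lower. This call stood close to the threshold. It was lost with DESeq2 (adjusted p = 0.201), without a low-count filter (0.0523), with doublets kept (0.322) and without HFD 1 (0.299), HFD 2 (0.147) or ND 1 (0.248), at log2 ratios of -0.26 to -0.37. Kitl was at 100.1 and 82.9 CPM in HFD and 95.7 and 105 in ND (log2 ratio -0.13, SE 0.127), Cxcl12 at 155 and 191 against 188 and 189 (-0.13, SE 0.103), and Csf1 at 32.7 and 39.4 against 41.2 and 42.4 (-0.22, SE 0.182).

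Other values of the Leydig-like cells moved with diet beside Kit. Summed Leydig markers (7 of 7 detected) were at 15601 to 15787 CPM in HFD and 16982 to 20480 in ND. Pachytene markers (8 of 8) were at 1219 to 1303 CPM in HFD and 897 to 987 in ND, and fibroblast markers (6 of 7) at 95.2 to 107 and 127 to 153. Of the 4 Leydig-like clusters, S11 made up 27.3% and 25.6% of the class in HFD and 42.1% and 45.9% in ND, and S5 34.6% and 34.9% against 27.6% and 20.5%. By cluster Kit was at 131 to 157 CPM on average, with 182, 110, 176 and 161 CPM in S11 and 122, 126, 143 and 135 CPM in S5 for HFD 1, HFD 2, ND 1 and ND 2. S12, led by Snhg11, Malat1 and Neat1 and with a median depth of 2496 UMIs, made up 27.3% and 26.4% of the class in HFD and 16% and 21% in ND, and had Kit at 61.3, 121, 201 and 155 CPM on 117 UMIs. S16 had Kit at 103, 172, 143 and 155 CPM. The diet groups overlap for Kit in S11 and S16 and do not in S5 and S12, with the widest gap between the group means in S12. The part of marker levels and of the cluster mix in the Kit difference was not tested.

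In the other classes that were fitted no member was called by edgeR, and none had an unadjusted p under 0.05. Endothelial-like cells, with 8 to 14 per library, were not fitted. There Cxcl12 was higher in both HFD libraries (394 and 428 CPM) than in both ND libraries (268 and 258). Kitl was so too, by the values given above, while Csf1 overlapped on 4 UMIs. In spermatogonia-like cells Kit was at 119 and 104 TMM-scaled CPM in HFD and 146 and 104 in ND, which overlap (log2 ratio -0.17, SE 0.255, adjusted p = 0.976, edgeR). In round spermatid-like cells Kit was at 5.01 and 4.67 CPM in HFD and 5.19 and 5.56 in ND, without overlap (-0.15, SE 0.1, adjusted p = 0.479). The clusters of this class were mixed differently by diet: cluster 14, lowest in Kit, made up 27.4% and 27.3% of it in HFD and 20.5% and 19.7% in ND, and cluster 13, highest in Kit among the 4 large clusters, 24.8% and 23.3% against 25.8% and 27.6%. Cluster 12, next lowest in Kit among these, had a lower share in HFD, at 26.4% and 27.9% against 31.8% and 32%. Within cluster 13 the diets overlap for Kit, while cluster 15 had 3.42 and 3.9 CPM in HFD and 5.96 and 5.54 in ND, without overlap. The part of the cluster mix in the class value was not tested. In macrophage-like cells Csf1r was at 679 and 642 CPM in HFD and 736 and 737 in ND, again without overlap (-0.15, SE 0.16, adjusted p = 0.925), beside summed macrophage markers of 10369 to 12682 CPM in HFD and 16409 to 17069 in ND. Leydig markers there were at 170 to 363 CPM in HFD and 60.1 to 79.5 in ND. Cluster S13, the lower in Csf1r, made up 41.4% and 25.8% of these cells in HFD and 16.7% and 14.1% in ND. In fibroblast-like cells Csf1 went the other way, at 159 and 144 TMM-scaled CPM over the tested genes in HFD against 88.8 and 95.6 in ND (0.72, SE 0.395, adjusted p = 0.998), on 61 UMIs, beside elongating spermatid markers of 22182 to 22186 CPM in HFD and 12790 to 13676 in ND and smooth muscle markers of 167 to 199 and 372 to 423. The part of these markers in the values of Csf1r and Csf1, and of S13 in that of Csf1r, was not tested. In Sertoli-like cells Kitl was at 18.5 and 5.12 CPM in HFD and 10.3 and 21 in ND, which overlap (-0.39, SE 0.565, adjusted p = 0.994). In early spermatocyte-like cells Kit was at 2.04 and 1.4 CPM in HFD and 2.84 and 2.39 in ND, without overlap (-0.62, SE 0.424, adjusted p = 0.587). Beside it, spermatogonia markers (9 of 9 detected) were at 44.3 to 44.9 CPM in HFD and 51.4 to 52.4 in ND in these cells, and round spermatid markers (7 of 7) at 133 to 137 and 160 to 185. Pachytene markers were at 4294 to 4321 CPM in HFD and 4046 to 4118 in ND. These levels are near those of the class's own markers, at 4280 to 4353 and 4391 to 4491. Cluster G3, with Kit at 1.53 ± 1.63 CPM and a median depth of 15170 UMIs, made up 23.2% and 26.2% of the class in HFD and 17.5% and 12.3% in ND, while the share of G1 overlapped between the diets. Within G1, Kit was at 12.4 and 17.7 CPM in HFD and 25.4 and 22.5 in ND, without overlap, on 25 UMIs. The part of these markers and of the cluster mix was not tested.

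In pachytene-like cells Gfra1 was at 1.94 and 1.43 CPM in HFD and 1.49 and 1.01 in ND (log2 ratio 0.44, SE 0.211, adjusted p = 0.254, edgeR), and passed only when ND 1 was left out (0.74, adjusted p = 0.0361). Gdnf was at 0.244 and 0.262 CPM against 0.184 and 0.119 in the same cells (0.74, SE 0.399, adjusted p = 0.312). In these cells round spermatid markers (7 of 7 detected) were at 140 to 144 CPM in HFD and 188 to 195 in ND, and cluster 10 made up 22.1% and 19.4% of the class in HFD and 25.4% and 26.3% in ND. Their part in these values was not tested. Of all genes tested, 5.96% were called in either direction in pachytene-like, 2.65% in round spermatid-like, 7.48% in elongating spermatid-like, 0.649% in early spermatocyte-like, 1.98% in macrophage-like and 0.0827% in fibroblast-like cells. In Sertoli-like and spermatogonia-like cells 0 genes (0%) were called by edgeR. Of the 7585 and 6910 genes tested there, 376 and 369 had an unadjusted p under 0.05. Ret and Cxcr4 did not pass the low-count filter in the fit of any single class. The difference between 2 classes in the diet ratio could be read in 34 pairs, in which the fits of both classes tested the member. It passed in 0 of them, with 1 unadjusted p under 0.05 (Csf1 in fibroblast-like against Leydig-like cells) and a smallest adjusted p of 0.568 (edgeR interaction term). The fit had no term for the library, so the sums of 2 classes from the same library were treated as independent.

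**Figure D5:**
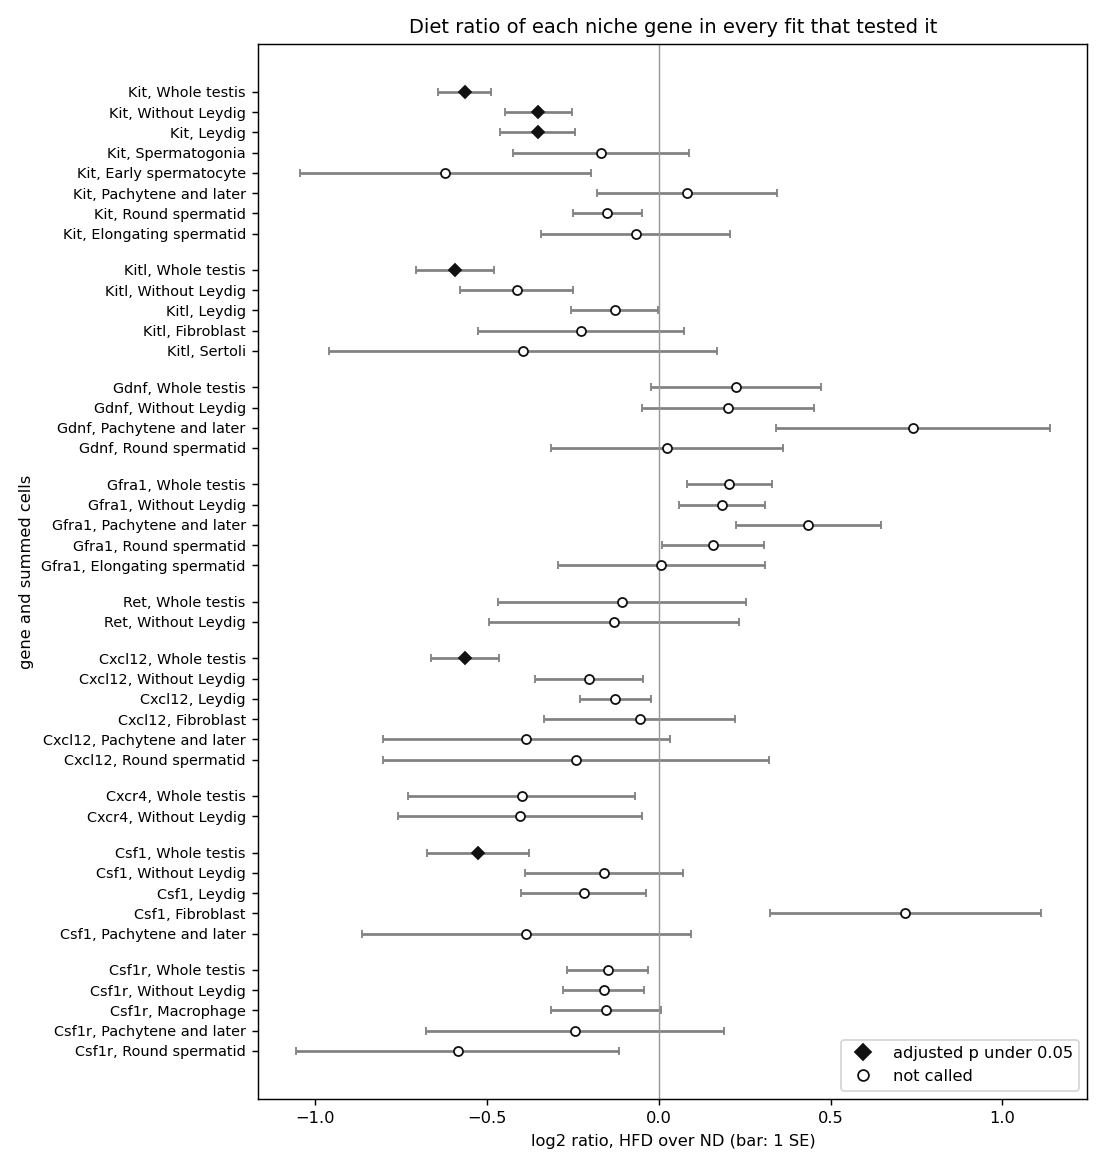
Log2 ratio of HFD over ND (x axis) with 1 SE for every member in each fit that tested it (y axis). Filled diamonds passed an adjusted p of 0.05: Kit in 3 fits, and Kitl, Cxcl12 and Csf1 in the whole testis alone.

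Beside the members, 74 further genes of niche pathways were listed and 67 could be tested in the whole testis, of which 14 (20.9%) were called lower and 4 (5.97%) higher at a median log2 ratio of -0.10. Of all genes tested there, 18.9% were lower and 15.3% higher at a median of -0.02, so the share of lower calls is near that of all genes and the share of higher calls below it. Lower were the WNT ligands Wnt6 (6.6 and 6.28 CPM in HFD, 9.27 and 9.61 in ND, log2 ratio -0.55) and Wnt5a (0.333 and 0.482 against 0.955 and 0.797, -1.11), the receptor Igf1r (1.94 and 2.37 against 3.88 and 4.02, -0.87) and the cyclin Ccnd2 (1.44 and 1.06 against 2.45 and 2.29, -0.92). Higher were Cx3cr1, a chemokine receptor of macrophages (2.65 and 2.58 against 1.73 and 1.79, 0.57), the GDNF family co-receptor Gfra4 (50 and 52.5 against 44.2 and 43.1, 0.23), Ncam1 (8.71 and 8.53 against 7.23 and 7.54, 0.22) and Acvr1b (5.85 and 6.01 against 5.05 and 5.13, 0.22). Their adjusted p ran from 2.64e-05 for Wnt6 to 0.0258 for Acvr1b (edgeR). The call of Acvr1b was lost without each of the 4 libraries in turn and with DESeq2 (adjusted p from 0.0529 to 0.145), and that of Ncam1 without HFD 1 (0.0657) or ND 1 (0.0771). By list, 3 of 8 tested WNT genes, 3 of 9 genes downstream of GDNF, 2 of 7 FGF genes, 2 of 8 genes of KIT and differentiation and 2 of 8 other niche factors were lower with 0 higher. Of 10 TGF-beta family genes 2 were lower and 1 higher, of 5 GDNF family genes 0 were lower and 2 higher, of 7 chemokine genes 0 were lower and 1 higher, and of 5 genes of colony stimulating factors none was called.

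Wnt6, Igf1r and Wnt5a had their highest level, as Kit did, in Leydig-like cells, at 433, 147 and 39 CPM over all libraries. Cx3cr1 had its own in macrophage-like cells (348 CPM on 938428 UMIs of all genes). Pachytene-like cells, at 2.32 CPM on 230283919 UMIs, held more of its UMIs. Gfra4 and Ncam1 were highest in pachytene-like cells, at 81.4 and 11.5 CPM. Of 2 chemokine genes tested in macrophage-like cells, 0 were called. Their median log2 ratio there was -0.49, the direction opposite to that of Cx3cr1 in the whole testis, beside 0.01 over all genes tested in these cells. Within Leydig-like cells 29 of the 74 were tested, and 3 (10.3%) were called lower and 0 higher at a median log2 ratio of -0.24, against 2.72% lower and a median of -0.01 over all genes tested in these cells. Ccnd2 was at 24.9 and 38 CPM in HFD and 85.9 and 79 in ND (log2 ratio -1.40, SE 0.169, adjusted p = 4.52e-09, edgeR), Igf1r at 92.9 and 124 against 175 and 181 (-0.72, SE 0.115, adjusted p = 8.91e-06) and Wnt5a at 23.6 and 33 against 52.5 and 43.3 (-0.76, SE 0.192, adjusted p = 0.008). The marker levels and cluster shares of Leydig-like cells given above moved with diet beside these 3 calls too, and their part was not tested. Wnt5a was not called without HFD 1 (adjusted p = 0.312), without ND 1 (0.106) or with doublets kept (0.0663). In pachytene-like cells Cx3cr1 was higher, at 3.24 and 2.73 CPM against 1.47 and 1.47 (1.02, SE 0.146, adjusted p = 0.00246, and 0.128 without a low-count filter or 0.124 with doublets kept). It stood beside the round spermatid markers and the share of cluster 10 given above for these cells, and beside macrophage markers (8 of 8) at 3.05 to 3.35 CPM in HFD and 2.53 to 2.87 in ND. Their part in this call was not tested. Without Leydig-like cells in the sum, 6 of 63 (9.52%) were lower and 4 (6.35%) higher, below the 16.4% lower and 13.2% higher of all genes tested, led by Wnt3a (1.44 and 1.43 against 2.1 and 2.36, log2 ratio -0.63) and Egr3 (8.66 and 8.93 against 12.1 and 10.5, -0.37) among the lower.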

How the data were processed

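Cells of dissociated mouse testis were sequenced in droplets (10x Chromium, 3′ version 3 chemistry, per the labels), as 2 libraries of the high-fat and 2 of the normal diet group. The authors deposited raw UMI counts per gene and barcode, in files whose header names software version 3.0.2, and the submitters' processing notes name build mm10. The aligner is not given in the sources used here. All 55450 gene identifiers and symbols matched GENCODE M21 (GRCm38), from which positions were taken. The members, gene lists and markers were chosen with earlier results of these data known.

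A barcode was kept from 200 detected genes and up to a mitochondrial share of 20%, and doublets called by Scrublet (expected rate 0.1) were left out. Cells of the 4 libraries were clustered together in scanpy 1.11.5 without the 9 members (2000 variable genes, 30 components, 15 neighbours, Leiden resolution 1). Somatic cells and early germ cells were clustered again (1000 genes, 20 components). A cluster was named where its marker score was at least 0.5 (mean log2 ratio over all clusters of CPM + 10), at least 3 markers were detected, its top 10 genes held no more markers of another class, and another lineage scored under 0.75. A cluster of low depth for its libraries also needed a marker among those 10 genes.

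Counts were summed per library over all kept cells or per class with at least 20 cells in every library, and tested with edgeR 4.0.16 in R 4.3.3 (filterByExpr, TMM, quasi-likelihood). P-values were adjusted by Benjamini-Hochberg over all genes of a fit, with a threshold of 0.05. The SE (standard error) was taken as the absolute log2 ratio over the square root of the F statistic. Numbers of cells per class were also tested by edgeR's quasi-likelihood test, with all kept cells of a library as its size. This test used no low-count filter and no TMM, and its p-values were adjusted over classes. Its SEs can be too small for the p-values beside them. The edgeR steps were tested on simulated data. Level in the description of classes is CPM, the UMIs per 1000000 UMIs of that class and library, and in diet comparisons it is per 1000000 UMIs of the genes left by the low-count filter, scaled by the TMM factor. A count of 0 was given an upper limit of 3 UMIs over the summed libraries. All 9 members are named. Of 74 other niche genes, up to 4 per direction and comparison were named by smallest p. For likeness, the 3 genes with the highest Pearson correlation were named for each member with at least 100 UMIs, among genes of at least 20 CPM in a class. Alternatives were RLE factors, DESeq2 1.42.0, no low-count filter, a replicate block, each library left out, doublets kept, a 10% mitochondrial limit and Leiden resolution 2.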

Additional observations from a re-analysis of the deposited data

How the results depend on the processing

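Libraries were 2 per diet, so each left-out library leaves 1 in its group, assumed to vary like the other. Of the 9 members, 4 were called in the whole testis in the fit described, 3 with DESeq2 and 3 to 4 with a library left out. Within classes the count of 1 became 0 without a low-count filter, 0 with DESeq2, 0 with doublets kept, 0 with a replicate block and 0 to 1 with a library left out, where the 1 without ND 1 was Gfra1 in pachytene-like cells and not Kit. In the testis without Leydig-like cells the count of 1 became 0 with DESeq2 and 0 to 1 with a library left out. Of the niche list genes, 18 were called in the whole testis and 11 with DESeq2, and within classes 4, with 2 under DESeq2 and 2 with doublets kept. DESeq2 gave no adjusted p for 3 of the 9 members and 20 of the 67 list genes of the whole testis (1 of the 18 called), for 6 of 9 members without Leydig-like cells, and within classes for 16 of 24 member tests and 134 of 204 list tests. The latter hold 2 of the 4 calls within classes, and the other 2 were called by both. Shares of cells were called for 2 classes, for 5 at Leiden resolution 2 and for 0 to 5 with a library left out. The class of highest level was kept by 7 to 9 of the 9 members.

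Same-numbered libraries of the 2 diets deviated with r = 0.10 over 21938 genes, so the numbers were not taken as pairs. With the replicate block 4 members and 26 niche list genes were called in the whole testis, and Kit in Leydig-like cells had adjusted p = 0.0585 (edgeR).

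Results that changed sign had not passed the test. With a library left out the log2 ratio ran from -0.52 to 0.38 for Ret and -0.030 to 0.53 for Gdnf in the whole testis, and from -0.36 to 0.075 for Csf1 without Leydig-like cells. It ran from -0.28 to 0.020 for Cxcl12 in Leydig-like, -0.43 to 0.31 for Cxcl12 in fibroblast-like, -1.60 to 0.23 for Kitl in Sertoli-like and -0.37 to 0.12 for Kit in spermatogonia-like cells. In round spermatid-like cells it ran from -1.46 to 0.37 for Cxcl12 and -0.32 to 0.42 for Gdnf (-0.051 with doublets kept). In pachytene-like cells it ran from -1.11 to 0.10 for Csf1, -0.63 to 0.069 for Csf1r and -0.10 to 0.25 for Kit (-0.13 with doublets kept and -0.057 at the 10% mitochondrial limit). In elongating spermatid-like cells it ran from -0.31 to 0.20 for Kit (0.19 at the 10% limit and 0.026 at resolution 2) and -0.39 to 0.34 for Gfra1 (-0.0024 without a filter and -0.0052 at resolution 2). The share of macrophage-like cells ran from -0.048 to 0.078 (-0.087 at the 10% limit), and that of Sertoli-like cells was 0.055 at the 10% limit. The cause of these changes was not tested. Of 536 values of single genes under an alternative, 465 kept direction and side of the threshold, 43 kept the direction and lost the call, 1 gained a call and 27 changed sign. These values do not cover every niche list gene, since the replicate block called more of those than the fit described. Calls gained by the genes left out are not in this count.

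Depth limits Gdnf, Ret and Cxcr4 most, with 165, 83 and 79 UMIs. Intervals and upper limits cover counting error only.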
